A study of Mus musculus with 1248 samples.

Results

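The G2 and M phase genes are 39 genes whose products take a cell from the end of DNA replication through mitosis and cytokinesis. They were chosen by symbol, and all 39 were found among the 40756 genes of the count table. They were read as CPM (counts scaled to the same library total) in every single-cell library and as their sum per library, across 7 groups and in tumour against host wells. A well was called tumour where the CPM sum of Krt8 and Krt18, keratins of epithelial cells, was above that of Ptprc, Coro1a, Laptm5 and Rac2, genes of blood cells, and host where it was below.

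The cells were the mouse mammary carcinoma line 4T1, from a BALB/c tumour, and 4T1.2, a clone derived from it that spreads to bone. All carried firefly luciferase and mCherry. 4T1 cells were injected into the heart of female BALB/c mice and sorted by mCherry from the hindlimbs at day 4, 10 or 16, and 4T1.2 cells likewise at day 4. Reference cells were 4T1 from a mammary fat pad tumour at day 22, and both lines from culture. Per the labels' protocol, a well went on only where qPCR of mCherry gave a Ct of 30 or less. Each group is a pool of single wells with no animal, plate or culture named. A group therefore counts as 1 sample, and no test was made between groups. Intervals cover the counting of reads or of wells only, not spread between animals or cultures.

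Entry into mitosis is set by cyclin A2 and cyclin B with the kinase Cdk1, which Cdc25 phosphatases switch on. Aurora and Polo kinases then build the spindle, kinetochores attach the chromosomes, and a checkpoint holds the anaphase-promoting complex (APC/C) back until every chromosome is attached. In proliferating cells the transcripts peak together in G2 and M, largely under the MuvB complex with B-Myb and FoxM1, and in resting cells the DREAM complex keeps them off through CHR elements (cell cycle genes homology region) in their promoters.

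After filtering, 1218 of 1248 wells remained, 501 tumour and 717 host. Tumour and host wells numbered 137 and 359 at 4T1 day 4, 54 and 41 at day 10, 71 and 119 at day 16, 85 and 10 in the fat pad, and 47 and 188 at 4T1.2 day 4. Both cultures gave tumour wells alone, 54 of 4T1 and 53 of 4T1.2. Median depth per tumour well lay between 2981083 and 3346557 counts, and per host well between 2405228 and 2889868. The class cut was clear for most wells, and 50 lay within 4-fold of it, 28 tumour and 22 host. Some wells held RNA of both kinds: 300 CPM or more of the blood genes stood in 40 tumour wells, of which 18 were among the 47 at 4T1.2 day 4 and none in culture. The median blood gene sum in tumour wells was 46.8 CPM at 4T1 day 4, 25.2 at day 10, 43.0 at day 16, 4.60 in fat pad cells and 212 at 4T1.2 day 4.

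The 39 genes were high in nearly every tumour well of both cultures and 4T1.2 day 4 bone, and in most at 4T1 day 4. They were low in most tumour wells of day 16 bone and of the fat pad tumour. The summed level per well had a median of 5990 CPM at 4T1 day 4 (lowest well 342 CPM, highest 24400), 2790 at day 10 (124 to 13100) and 362 at day 16 (57.7 to 13100). It was 247 CPM in the fat pad (39.6 to 25400) and 6980 at 4T1.2 day 4 (2590 to 13400), against 5020 in 4T1 culture (1410 to 23900) and 5560 in 4T1.2 culture (1400 to 13600). The ranges of all groups overlapped. The median day 16 well lay above the lowest 4T1 day 4 well and, like the median fat pad well, above the lowest day 10 well, while both medians lay below every well of the cultures and of 4T1.2 day 4. The 10% of tumour wells with the most member counts, which depend on depth too, held 65.7% of them at day 16. They held 81.4% in the fat pad, against 26.8% in 4T1 culture. In a summed level, fewer cells in G2 or M and less of these transcripts per cell cannot be told apart.

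**Figure D1:**
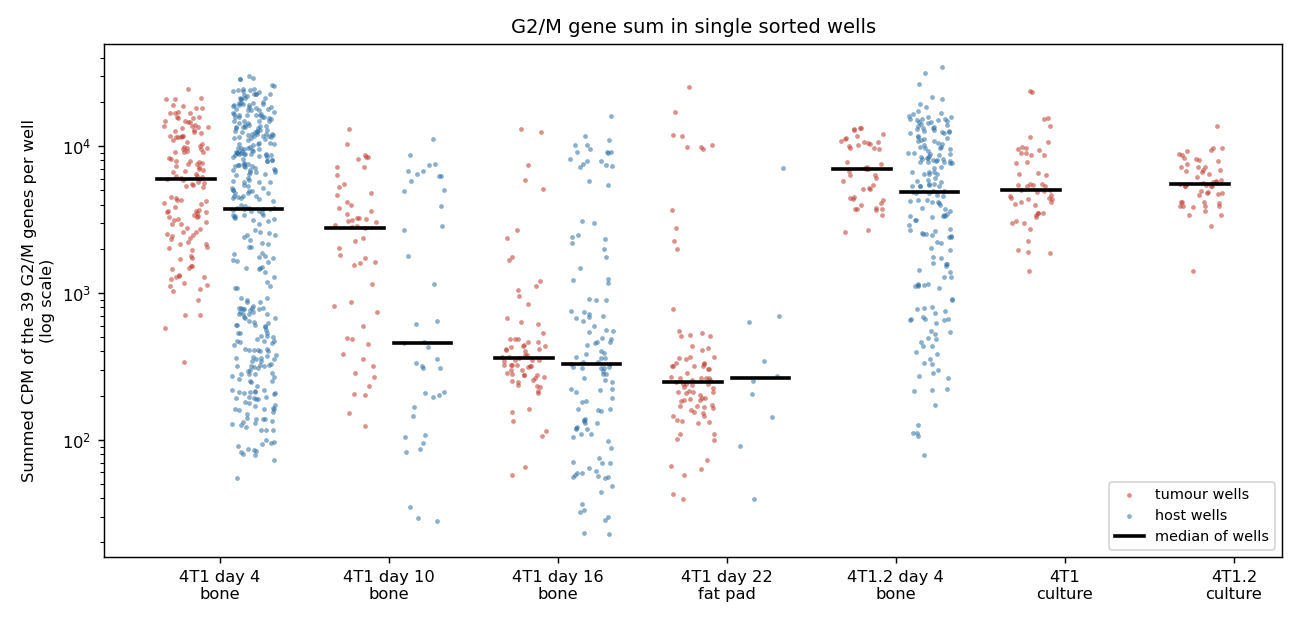
Summed CPM of the 39 G2/M genes in each well (log scale) by group, for tumour wells (red) and host wells (blue), with the median of wells as a black bar. Tumour medians are 5990 CPM at 4T1 day 4, 362 at day 16 and 247 in the fat pad, and the cultures have no well under 1400.

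To take depth out, each well was thinned to 500000 counts, and a gene was taken as found at 5 or more of them. A well was past the G2/M cut where at least 20 of the 39 were found. Past the cut were 113 of 135 tumour wells at 4T1 day 4 (83.7%, exact binomial 95% interval 76.4 to 89.5), 33 of 52 at day 10 (63.5%, 49.0 to 76.4) and 7 of 69 at day 16 (10.1%, 4.18 to 19.8). The fat pad had 10 of 84 (11.9%, 5.86 to 20.8) and 4T1.2 day 4 had 45 of 46 (97.8%, 88.5 to 99.9), against 53 of 53 in each culture (100%, 93.3 to 100). The shares of day 16 and the fat pad were the lowest among the tumour groups. The intervals cover the sampling of wells within a pool, so they do not test a difference between groups. The cut was a range rather than a cell state: 19 tumour wells at 4T1 day 4 lay within 3 genes of it, but only 1 at day 16. The median tumour well at day 16 still had 5 of the 39 found and that of the fat pad 4.

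Hjurp and Smc4 were the genes that remained on in the low wells. Hjurp, the chaperone that loads the centromeric histone Cenpa, had a well median of 81.4 CPM at day 16 (1.71 to 843) and 69.4 in the fat pad (0 to 663), against 199 in 4T1 culture (26.0 to 647). It was found in 82.6% of thinned wells at day 16 and 77.4% in the fat pad. Smc4, a condensin subunit, had well medians of 75.2 and 59.8 CPM in these groups, against 184 in 4T1 culture, and was found in 89.9% and 84.5% of wells. The other 37 had well medians under 5 CPM in both. At 4T1 day 10 this held for 10 of the 39, at day 4 for 1, Gtse1 (3.16 CPM), and at 4T1.2 day 4 and in the cultures for none.

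The cyclins and Cdk1 were lowest at day 16 among the 7 groups. Ccnb1, cyclin B1, stood at 337 CPM at 4T1 day 4, 91.9 at day 10, 23.0 at day 16, 51.7 in fat pad cells and 254 at 4T1.2 day 4, against 176 in 4T1 culture and 182 in 4T1.2 culture. Its well median was 167 CPM at day 4 (0 to 1810) and 0.656 at day 16 (0 to 455), so the day 16 level came from few wells, and 7.25% of them had it found. Ccna2, cyclin A2, which acts from S phase into early mitosis, had 451, 190 and 36.6 CPM at days 4, 10 and 16, 56.1 in fat pad cells and 416 at 4T1.2 day 4, against 387 and 383 in the 4T1 and 4T1.2 cultures. Cdk1 had 285, 151 and 49.6 CPM at days 4, 10 and 16, 87.4 in fat pad cells and 334 at 4T1.2 day 4, against 293 and 360 in the cultures. Cdk1 was thus found more widely than its cyclin, in 40.6% of wells at day 16 and 50.0% in the fat pad. Ccnb2, cyclin B2, stayed closest to its day 4 level at day 10, with 269 CPM against 339.

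Among the kinases and checkpoint genes, Plk1, the Polo kinase of mitotic entry and centrosome maturation, had 179 CPM at 4T1 day 4, 47.6 at day 10, 8.40 at day 16, 37.3 in fat pad cells and 202 at 4T1.2 day 4, against 150 in 4T1 culture and 158 in 4T1.2 culture. Its well median at day 10 was already 1.48 CPM (0 to 255), and 42.3% of wells had it found. Aurkb, the kinase of the chromosomal passenger complex, had 147, 75.4 and 10.8 CPM at days 4, 10 and 16, 24.2 in fat pad cells and 119 at 4T1.2 day 4, against 123 and 126 in the cultures. Both were therefore low at day 16, in 10.1% and 5.80% of wells. Aurka, which acts at the spindle poles, and the checkpoint genes Bub1, Bub1b and Ttk had 16.1, 7.33, 9.59 and 2.01 CPM at day 16, against 206, 74.2, 120 and 49.2 at day 4, each in the order named.

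Of the APC/C genes, Ube2c, the E2 enzyme that starts ubiquitin chains on cyclin B, had 466, 107 and 34.0 CPM at days 4, 10 and 16, 111 in fat pad cells and 375 at 4T1.2 day 4, against 272 and 234 in the cultures. Cdc20, the activator that the checkpoint holds back, had 390, 157 and 41.7 CPM at days 4, 10 and 16, 104 in fat pad cells and 433 at 4T1.2 day 4, against 314 and 255 in the cultures. The highest fat pad wells reached 2220 CPM of Ube2c and 2130 of Cdc20, close to the highest culture wells of 2430 and 2040. The fat pad well medians were 1.14 CPM of Ube2c and 1.19 of Cdc20, so the range within the fat pad was wide.

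At the centromere, Birc5 (survivin), a passenger complex subunit, had 350 CPM at 4T1 day 4, 174 at day 10, 23.2 at day 16, 60.8 in fat pad cells and 341 at 4T1.2 day 4, against 326 and 337 in the cultures. Its well median of 325 CPM at day 4 (1.2 to 1080) stood against 344 in 4T1 culture (41.7 to 1550), so the 2 groups overlapped almost fully. Cenpf, a large kinetochore and nuclear matrix protein, differed from Birc5 in being higher at day 4 than in culture: 140, 59.7 and 26.8 CPM at days 4, 10 and 16, 52.0 in fat pad cells and 169 at 4T1.2 day 4, against 74.8 and 87.0 in the cultures. Ndc80 and Nuf2, partners in the microtubule-binding Ndc80 complex, had 5.93 and 4.64 CPM at day 16, against 72.0 and 66.7 at day 4.

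For the spindle and for cytokinesis, Hmmr, a microtubule-binding protein of the spindle, had 91.2, 31.2 and 7.77 CPM at days 4, 10 and 16, 26.3 in fat pad cells and 86.8 at 4T1.2 day 4, against 69.9 and 91.8 in the cultures. Kif23, a kinesin of the central spindle, had 137, 50.5 and 21.6 CPM at days 4, 10 and 16, 23.5 in fat pad cells and 102 at 4T1.2 day 4, against 108 and 62.1 in the cultures. Kif23 was among the furthest apart between the cultured lines (log2 ratio −0.75 in 4T1.2 over 4T1). All 10 spindle genes were at least 2-fold lower at day 10 than at day 4, where 2.30% of all genes were.

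Of the chromosome structure genes, Mki67, the Ki-67 protein that coats mitotic chromosomes, had 178 CPM at 4T1 day 4, 82.4 at day 10, 34.2 at day 16, 29.1 in fat pad cells and 205 at 4T1.2 day 4, against 97.8 and 88.4 in the cultures. Top2a, the topoisomerase that untangles sister chromatids, had 504, 220 and 50.7 CPM at days 4, 10 and 16, 105 in fat pad cells and 426 at 4T1.2 day 4, against 335 and 396 in the cultures. Mki67 was higher at day 4 than in culture in both lines. Per kilobase of exon, in 4T1 culture, Cdc20 was the most abundant of the 39 (168 CPM per kb), then Ccnb2 (125), Ube2c (105), Birc5 (95.8) and Ccna2 (94.8), and Cenpf the least (4.84). For members at 20 CPM or more in tumour wells the exact Poisson interval of a summed level reached at most 3.37% above and 3.28% below it. The spread between wells was far wider than this, as the ranges above show.

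**Figure D2:**
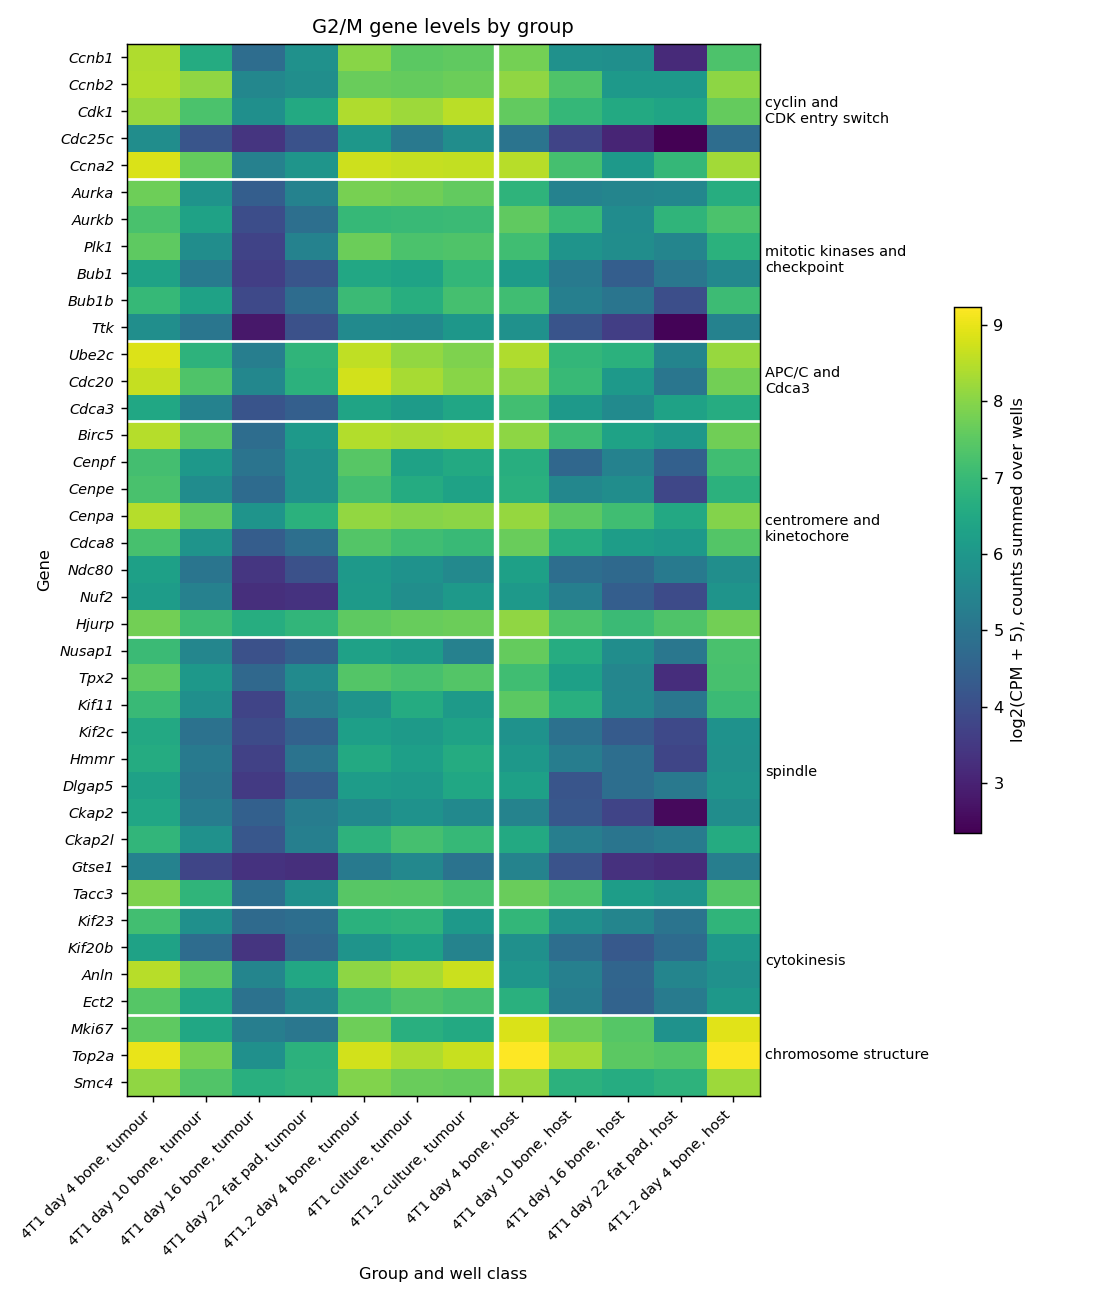
Level of each of the 39 genes, as log2 of CPM plus 5 from counts summed over wells, by role (rows) and by group and well class (columns). Day 16 and fat pad tumour columns are dark for most rows, while Hjurp and Smc4 remain mid-range, and Mki67 and Top2a are each brightest in host wells of day 4 bone.

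Ratios between groups were taken on summed, TMM-scaled levels as log2 of CPM plus 5, among genes at 5 CPM or more in either group, and a gene was called where it was at least 2-fold apart. All 39 passed that filter in all 14 comparisons. The 5 CPM added draw the ratio of low genes towards 0. The tumour wells of every group, and the host wells of 4T1 day 4 and day 16, enter 2 or more of the comparisons, which then share those wells.

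The first question was whether cells that had just reached bone differed from the cells injected. At 4T1 day 4 none of the 39 was 2-fold higher or lower than in culture, where 6.11% and 2.59% of 10131 genes were. Their median log2 ratio was 0.33 (range −0.33 to 0.92), against 0.05 for all genes. Furthest up was Ccnb1 (0.92), and furthest down Ckap2l (−0.33), a spindle protein. With wells weighted equally the median was 0.06, against −0.05 for all genes, and without TMM it was 0.21, against −0.06. The size of the excess over all genes is therefore not firm. At 4T1.2 day 4 against its culture, Mki67 alone was 2-fold higher (1.17, 205 against 88.4 CPM) and none was lower, where 5.11% and 3.93% of 10187 genes were. The median of the 39 was 0.09, against −0.13 for all genes. Furthest down was Anln (−0.63), anillin, the scaffold of the contractile ring.

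The next comparisons follow 4T1 in bone over time. At day 10 against day 4, 28 of the 39 were at least 2-fold lower and none higher, where 2.30% and 5.05% of 10329 genes were. Their median log2 ratio was −1.19, against −0.06 for all genes. The 6 furthest were Ube2c (−2.07), Ccnb1 and Aurka (both −1.82), Plk1 (−1.81), Gtse1 (−1.62) and Kif2c (−1.57), a kinesin that depolymerises microtubules. Ccnb2 was the nearest to no difference (−0.33). The spindle genes had a median of −1.32 and the kinases and checkpoint genes one of −1.02.

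At day 16 against day 4, all 39 were at least 2-fold lower, where 9.72% of 10447 genes were lower and 9.50% higher. Their median was −2.85, against −0.05 for all genes. Furthest were Plk1 (−3.78, 8.40 against 179 CPM), Birc5 (−3.65), Ccnb1 (−3.61), Ube2c (−3.59), Ccna2 (−3.45) and Aurka (−3.32). Hjurp (−1.11) and Smc4 (−1.39) were the least apart. Without the added 5 CPM, Ttk was 24.4-fold lower (2.01 against 49.2 CPM) and Plk1 21.3-fold lower, so the order depends on it. At day 16 against day 10, 33 were lower and none higher, where 6.65% and 5.69% of 10511 genes were, with a median of −1.53, against −0.03 for all genes. Birc5 (−2.67), Ccnb2 (−2.56), Bub1b (−2.44), Aurkb (−2.35), Ttk (−2.24) and Ccna2 (−2.23) were furthest. Ube2c, which led the earlier interval, had −1.52 in the later one, and Ccnb2, which differed least in the earlier interval, was second in the later one.

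Fat pad tumour cells were set against culture as a second growth site. There 34 of the 39 were at least 2-fold lower and none higher, where 9.66% and 12.8% of 10442 genes were. The median was −1.67, against 0.02 for all genes. Furthest were Ccna2 (−2.68), Nuf2 (−2.40), Birc5 and Aurka (both −2.33), Gtse1 (−2.26) and Cdca8 (−2.25), a passenger complex subunit, and least apart was Cenpf (−0.48). Day 16 bone against the fat pad had 12 lower and none higher, where 5.02% and 6.54% of 10557 genes were, with a median of −0.84, against −0.04 for all genes. Plk1 (−1.66), Ube2c (−1.57), Kif11 (−1.53), a kinesin that separates spindle poles, Hmmr (−1.29), Kif20b (−1.26), a cytokinesis kinesin, and Ttk (−1.24) were furthest, and Mki67 (0.20) went the other way. This count was 19 with 1 CPM added in place of 5, and 7 with wells weighted equally, and the fat pad level rested on few wells. The median well went the other way, with a summed level of 362 CPM at day 16 and 247 in the fat pad, and the shares past the cut were 10.1% and 11.9%, so no direction is read for the typical cell.

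The lines were then set against each other. In culture none of the 39 was 2-fold apart between 4T1.2 and 4T1, where 4.34% of 10014 genes were higher and 4.09% lower in 4T1.2. The median was 0.04, against 0.09 for all genes, with Cdc25c highest (0.60) and Kif20b lowest (−0.84). At day 4 in bone, Kif11 alone was 2-fold lower in 4T1.2 (−1.11, 54.8 against 124 CPM) and none was higher, where 6.16% and 3.32% of 10298 genes were. The median was −0.14, against −0.08 for all genes. With wells weighted equally it was 0.02, against 0.03, so no direction is read from it. Without wells of both kinds of RNA, 18 of them tumour wells of 4T1.2 day 4, the median was −0.02, against −0.07. Library totals without TMM also gave −0.02 with these wells kept. The part of these wells in the result was not tested.

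**Figure D3:**
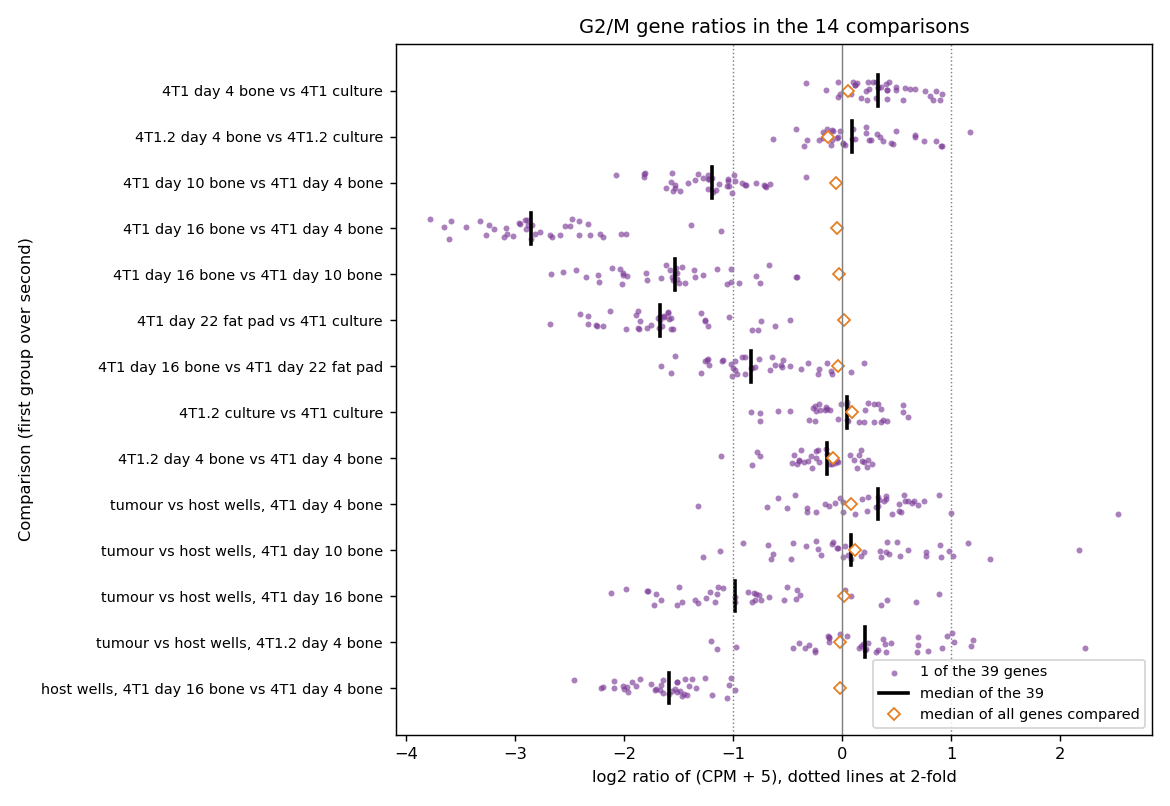
Log2 ratio of each of the 39 genes (purple points), their median (black bars) and the median of all genes compared (orange diamonds) in the 14 comparisons, first group over second, with dotted lines at 2-fold. All 39 lie left of the all-gene median at day 10 and day 16 against day 4 and in the fat pad against culture, and they lie on both sides of it between the lines.

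RefSeq promoter windows (300 bases, from 250 before to 50 after the start, GRCm38.p6) were matched by symbol for 33 of the 39, with 35 windows. The CHR letters searched were TTTGAA and TTTAAA, and the CCAAT box was searched as CCAAT, all on either strand. The CHR letters cannot overlap each other, and CCAAT can share at most 1 letter with them. A CHR match was in 31 of 35 windows (88.6%), against 27.6% of 32851 windows of all genes, 62.5% of 56 windows of other G2/M genes and 27.0% of 37 windows of S phase genes. CCAAT was in 77.1%, against 37.4% of all, 67.9% of other G2/M and 64.9% of S phase windows. At least 2 CCAAT with a CHR match stood in 51.4%, against 3.13% of all. The windows of Bub1, Nuf2, Nusap1 and Tacc3 had no CHR letters, and at day 16 against day 4 these 4 had a median log2 ratio of −2.93, against −2.85 for the 29 genes with a match.

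Shown are 150 bases, from 120 before to 30 after the start, of 6 genes that were among the furthest apart or lead their role, and of Tacc3, a spindle protein with no match, for contrast. Capitals mark CHR letters (TTTGAA or its complement TTCAAA, and TTTAAA) and CCAAT (or ATTGG), read 5′ to 3′ on the strand of the gene.
Ccnb1, chr13:100786457-100786606, minus strand: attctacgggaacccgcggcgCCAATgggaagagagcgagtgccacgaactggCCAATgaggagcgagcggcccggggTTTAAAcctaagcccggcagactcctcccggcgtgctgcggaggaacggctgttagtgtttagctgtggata
Ccnb2, chr9:70421525-70421674, minus strand: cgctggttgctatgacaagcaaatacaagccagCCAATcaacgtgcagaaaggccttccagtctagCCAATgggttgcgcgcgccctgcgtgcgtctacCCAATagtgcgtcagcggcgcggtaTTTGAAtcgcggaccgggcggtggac
Cdk1, chr10:69352883-69353032, minus strand: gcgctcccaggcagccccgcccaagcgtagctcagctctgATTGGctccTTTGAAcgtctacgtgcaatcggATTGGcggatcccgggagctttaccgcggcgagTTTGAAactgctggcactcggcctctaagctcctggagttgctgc
Plk1, chr7:122159315-122159464, plus strand: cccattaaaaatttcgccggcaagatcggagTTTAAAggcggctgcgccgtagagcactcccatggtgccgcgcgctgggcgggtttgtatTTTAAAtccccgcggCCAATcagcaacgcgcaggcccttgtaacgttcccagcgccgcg
Top2a, chr11:99024160-99024309, minus strand: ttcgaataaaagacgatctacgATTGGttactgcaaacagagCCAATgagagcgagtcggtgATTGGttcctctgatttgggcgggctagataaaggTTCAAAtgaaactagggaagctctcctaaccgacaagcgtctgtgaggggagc
Ube2c, chr2:164769809-164769958, plus strand: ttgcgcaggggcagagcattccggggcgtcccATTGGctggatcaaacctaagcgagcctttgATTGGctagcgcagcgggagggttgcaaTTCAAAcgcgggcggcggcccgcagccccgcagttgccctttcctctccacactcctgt
Tacc3, chr5:33658008-33658157, plus strand: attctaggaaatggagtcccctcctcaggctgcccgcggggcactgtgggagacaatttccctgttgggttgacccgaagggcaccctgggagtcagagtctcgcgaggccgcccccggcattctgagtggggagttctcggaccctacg
In the bases shown, Ccnb1, Ccnb2, Cdk1, Top2a and Ube2c end their matches with a CHR match, and Plk1 with CCAAT. In the same stretch of Cdc20, which was also read but is not printed here, the last match is CCAAT as well. A further CHR match of Plk1 lies just past the bases shown. A match describes letters and says nothing of binding in these cells.

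Host wells were the second class. Past the G2/M cut were 50.9% of 352 host wells at 4T1 day 4 (45.5 to 56.2), 34.1% of 41 at day 10 (20.1 to 50.6), 16.9% of 118 at day 16 (10.7 to 25.0), 10.0% of 10 in the fat pad (0.253 to 44.5) and 63.4% of 183 at 4T1.2 day 4 (56.0 to 70.4). Host wells at day 16 against day 4 had 38 of the 39 at least 2-fold lower and none higher, where 9.49% and 10.7% of 10799 genes were. The median was −1.59, against −0.02 for all genes, with Ccna2 (−2.46), Ttk (−2.21), Ect2 (−2.19), which activates RhoA at the cleavage furrow, Bub1b and Gtse1 (both −2.09) and Ccnb2 (−2.01) furthest, and Cenpe (−0.98), a kinetochore motor, the exception. The kinds of host well differed between the days as well, as the clusters show.

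Clustered without the cell cycle lists and named from marker genes, host wells differed in their G2/M levels by lineage and stage. Cluster 5, neutrophil-like and led by Retnlg and Mmp8 of late neutrophils, had 2 of 68 wells past the cut (2.94%, 0.358 to 10.2). Neutrophil-like cluster 1, led by Ltf and Camp, had 23.0% of 74, and neutrophil-like cluster 13, led by Fcnb and with the precursor markers Mpo and Prtn3, had 81.2% of 32. The median sums of clusters 5, 1 and 13 were 209, 358 and 8010 CPM. All neutrophil-like wells together had 25.9% past the cut. Day 16 tumour wells, thinned to the same depth, had 10.1% past the cut, against 2.94% in cluster 5. Neutrophil or myeloid precursor-like cluster 2 (Prtn3, Mpo) had 61.7% of 60 past the cut.

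Among the B lineage, pro-B or pre-B-like cluster 6 (Dntt, Igll1) had 59.2% of 71 wells past the cut, and B cell-like clusters 10, 11 and 12 had 82.2% of 45, 87.5% of 40 and 59.0% of 61. Cluster 10 was also led by the early B genes Igll1 and Vpreb1. Cluster 11 was led by Fcrla, Ighm and the early B gene Vpreb3, and Igll1 was a marker of it too. Its name thus does not set it apart from early B cells. It had the highest median sum of any cluster, 19500 CPM, with medians of 1150 CPM of Mki67 and 1650 of Top2a. Cluster 12 also held 9 neutrophil markers at a median of 50 CPM or more, and their part in its value was not tested. Erythroid-like cluster 4 had 83.3% of 60. Monocyte or macrophage-like clusters 7 (Ccr2) and 9 (C1qa, Apoe) had 6.90% of 29 and 12.1% of 99, dendritic-like cluster 3 (Siglech) 28.6% of 21 and T or NK-like cluster 14 52.2% of 23. Unnamed cluster 8, led by Sparc and Cyr61 and with the epithelial genes Krt8 and Krt18 as its only listed markers, had 76.2% of 21. Of its 23 wells 16 were of 4T1.2 day 4, with 13 of the 16 past the cut. They count as host wells there, and their part in the host values was not tested. At day 16, 60 of 119 host wells were in cluster 9, against 12 of 359 at day 4.

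**Figure D4:**
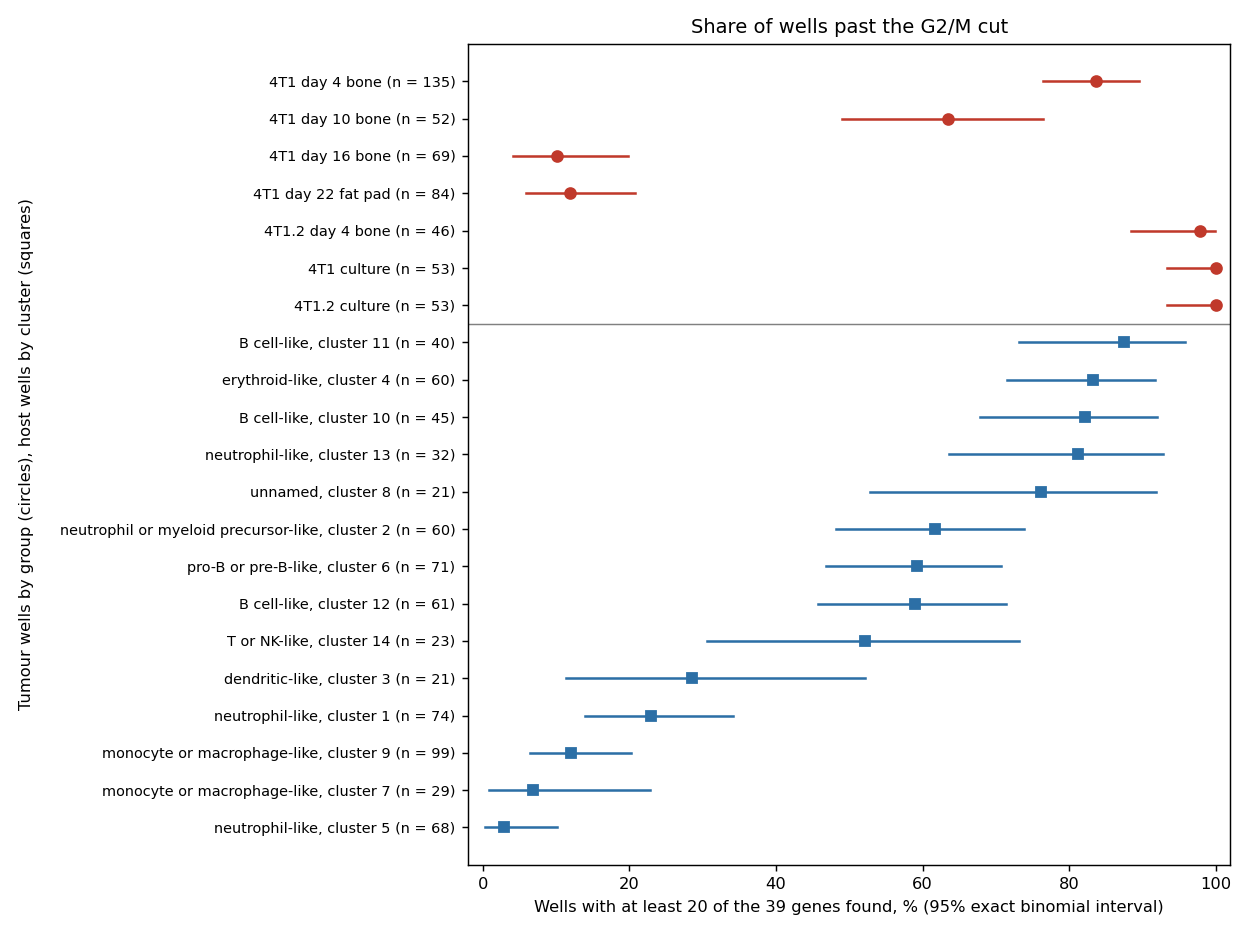
Share of wells with at least 20 of the 39 genes found after thinning to 500000 counts, with exact 95% binomial intervals, for tumour wells by group (circles) and host wells by cluster (squares). Tumour wells of day 16 (10.1%) and the fat pad (11.9%) lie among the macrophage-like and late neutrophil-like clusters, and those of the cultures (100%) above every cluster.

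Tumour wells were compared with host wells of the same group in 4 groups. At 4T1 day 4, Anln (2.53) and Ckap2 (1.00), a spindle protein, were at least 2-fold higher and Mki67 lower (−1.32), where 18.0% and 18.5% of 11203 genes were. The median of the 39 was 0.33, against 0.08 for all genes. At day 10, Anln (2.17), Cenpf (1.36), Ect2 (1.15) and Ckap2 (1.02) were higher and Mki67 (−1.28) and Nusap1 (−1.12), a spindle protein, lower, where 21.6% and 20.7% of 11177 genes were, with a median of 0.08, against 0.12. At day 16 none was higher and 18 were lower, where 20.1% and 21.1% of 11363 genes were, with a median of −0.98, against 0.02. Mki67 (−2.12), Plk1 (−1.98), Kif11 (−1.79), Cdca8 (−1.78), Aurkb (−1.73) and Top2a (−1.71) were furthest. At 4T1.2 day 4, Anln (2.23), Aurka (1.2), Cdc25c (1.18), Ect2 (1.03) and Cdc20 (1.01) were higher and Mki67 (−1.20) and Kif11 (−1.15) lower, where 16.1% and 19.7% of 11138 genes were, with a median of 0.21, against −0.02. The 18 lower at day 16 were a larger share of the 39 than the share of all genes, and the other counts were smaller ones.

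Anln and Mki67 held their sides between the classes. Anln had 356 CPM in tumour and 57.5 in host wells at 4T1 day 4, 178 and 35.7 at day 10, 39.6 and 19.0 at day 16, and 260 and 51.7 at 4T1.2 day 4. In host clusters its median was 4.87 CPM in B cell-like cluster 11 and 3.49 in pro-B or pre-B-like cluster 6, although their member sums were high, but 64.1 in erythroid-like cluster 4 and 57.9 in neutrophil-like cluster 13. Mki67 had 178 CPM in tumour and 452 in host wells at 4T1 day 4, 82.4 and 207 at day 10, 34.2 and 166 at day 16, and 205 and 478 at 4T1.2 day 4.

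Within groups the 39 genes varied together from well to well. Spearman's rho over the 741 pairs had a median of 0.628 over 137 tumour wells at 4T1 day 4, 0.539 over 54 at day 10, 0.241 over 71 at day 16, 0.310 over 85 in fat pad cells and 0.405 over 47 at 4T1.2 day 4, against 0.557 over 54 in 4T1 culture and 0.375 over 53 in 4T1.2 culture. These are descriptions, since no animal, plate or culture is named for the wells and all CPM of a well share its total, and at day 16 and in the fat pad most values are near 0. Averaged over the 7 groups, Ccnb1 with Ube2c was the closest pair (0.676), then Tpx2 with Cdc20 (0.636), and Ccnb2 with Smc4 the least (−0.00558). Top2a, which peaks from late S phase on, was close to Cdk1 (0.628) and Aurkb (0.625) but not to Ccnb2 (−0.001) or Cenpa (0.089). Against the sum of the other 38, Ccnb1 had the highest mean rho (0.698), and Hjurp (0.298) and Ccnb2 (0.343) the lowest.

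The relation to S phase genes differed between the groups. Per well, the G2/M sum and the sum of 43 S phase genes had a rho of −0.565 at 4T1 day 4, 0.466 at day 10, 0.470 at day 16, 0.325 in fat pad cells and −0.269 at 4T1.2 day 4, against −0.627 in 4T1 culture and −0.600 in 4T1.2 culture. In culture and at day 4, wells high in one sum were lower in the other. At day 10, day 16 and in the fat pad, wells low in both stood apart from wells high in either. Depth moved little with the G2/M sum (rho with total counts −0.141 to 0.196), while genes detected moved with it more in some groups (−0.0267 in 4T1 culture, 0.416 at day 10).

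**Figure D5:**
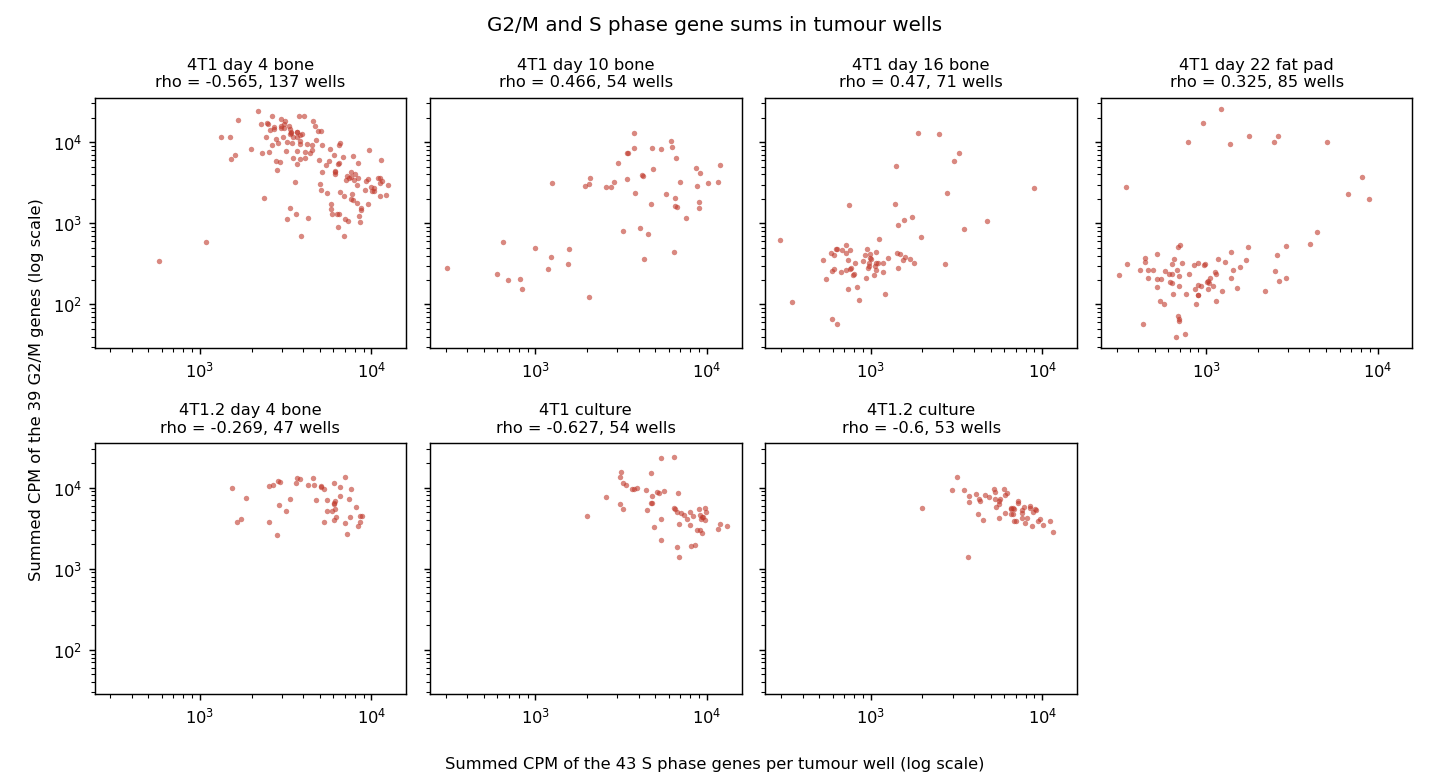
Summed CPM of the 39 G2/M genes against summed CPM of 43 S phase genes (both log scale) in tumour wells, 1 panel per group, 1 point per well. Points run downwards in the cultures and at day 4 (rho −0.627 in 4T1 culture), and form a low cloud with a few high wells at day 16 and in the fat pad.

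Outside the lists, the genes whose well pattern was most like the G2/M sum, of 4747 ranked by mean rho over the 7 groups, were Arl6ip1 (0.564), Reep4 (0.496), H2afx (0.490), Tubb4b (0.478), Nde1 (0.460), Trim59 (0.456), Jpt1 (0.452), Tuba1c (0.451), Tubb5 (0.413) and Fzr1 (0.402). The median over all genes ranked was 0.0360. The lowest rho in any group was below 0 for Jpt1 (−0.183), Tubb4b (−0.093), Tuba1c (−0.062) and Fzr1 (−0.024). The others named were above 0 in every group.

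Other genes of the cycle were taken as lists. Of 61 other G2/M genes compared at day 10 against day 4, 28 were at least 2-fold lower and none higher (median −0.92). Of all genes 2.30% were lower and 5.05% higher there. At day 16 against day 4, 59 of the 61 were lower (median −2.33), where 9.72% of all genes were. Wee1, the kinase that holds Cdk1 inactive, was not among them, with 73.6 CPM at day 10 and 86.2 at day 16, against 72.7 at day 4. Of the 43 S phase genes, none was 2-fold apart at day 10 against day 4 (median −0.25). At day 16 against day 4, 34 were lower (median −2.01), where 9.72% of all genes were. Rrm2 (−3.47) and Mcm5 (−3.13) were among the furthest. At day 10 the G2/M genes were thus lower while S phase genes were near their day 4 level. The summed levels of the lists were 3279 and 4689 CPM, against 7484 and 5184 at day 4. In the fat pad 35 of 43 S phase genes were at least 2-fold lower than in culture (median −1.76), where 9.66% of all genes were. At 4T1 day 4 against culture, 35 of the 43 had a ratio below 0 (median −0.26), while 34 of the 39 G2/M genes had one above 0. The median of all genes there was 0.05.

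Counting could blur a few values. Reads were counted without a stated strand, and exons of 10 of the 39 share bases with another gene, most with Ube2c (22.8% of its exon bases, with Tnnc2, listed at 0 CPM), Cdc25c (12.7%, Gm3550) and Ccna2 (12.5%, Exosc9, at most 72.5 CPM). The pseudogene rows Ccnb1-ps and Ccnb2-ps reached at most 1.61 and 0.302 CPM in tumour wells.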

How the data were processed

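Polyadenylated RNA of single cells sorted into 96-well plates was amplified by a Smart-seq2 variant, per the labels' protocols. The authors deposited 1 table of whole-number read counts per gene symbol and well, with no molecular identifiers. Among the tools in the submitters' processing notes are STAR 2.6.0c and featureCounts 1.6.2, with build mm10. No source used here names the annotation. Each well was grouped by its own label.

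ERCC (0.670% of counts), reporter (0.187%) and 4 repeated date-like entries (0.0149%) stayed out. Wells needed 1000 genes, 50000 counts and at most 25% mitochondrial counts. No doublet caller was run, since wells were sorted singly, and 0 pairs of wells were identical. Counts were summed per group and class and scaled by TMM with edgeR 4.0.16 in R 4.3.3, and no count model was fitted. Host wells were clustered with scanpy 1.11.5 and igraph 0.11.9 (2000 variable genes, 20 components, 15 neighbours, resolution 1) and named "-like" from at least 3 markers at a median of 50 CPM, with a marker among the 10 leading genes. Positions and exon lengths are from GENCODE M21, promoters from RefSeq. Intervals are exact, at 95%. Python 3.11.15, numpy 2.4.6, pandas 2.3.3, scipy 1.17.1 and matplotlib 3.10.9 did the rest. Of the steps, only the summed ratio was tested on simulated wells, shaped like 4T1 day 4 bone against culture. Of 50 genes planted at each log2 ratio, 9 were called at −1, 16 at 1, and all 50 at −2 and at 2. Of 9614 unchanged genes 18 were called. Counts of genes at least 2-fold apart thus miss many that are just 2-fold apart. PCR reads are not independent molecules.

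Members and lists were chosen with earlier results of these data known. Every member could be named. Named in each comparison were members at least 2-fold apart, up to 6 each way, else the furthest each way, and of other lists up to 4 each way. The alternatives tried were other filters, size factors from DESeq2 1.42.0, library totals, 1 CPM added, wells weighted equally, other thinning depths and cuts, and 3 other sets of wells.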

Additional observations from a re-analysis of the deposited data

Results flagged for a closer look

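The contrast of tumour against host wells had opposite signs at 4T1 day 4 and day 16, and the difference between the days was not tested, since each group is 1 sample. The median log2 ratio of the 39 genes was 0.33 at day 4 and −0.98 at day 16, which differ by 1.31. For 7 genes both ratios were at least 0.5 from 0 on opposite sides. Aurka had 0.89 at day 4 and −1.09 at day 16, a difference of 1.98. Hmmr had 0.57 and −1.15, a difference of 1.72, and Ccnb1 0.64 and −0.98, a difference of 1.62. Cenpe had 0.54 and −0.98 (1.52), Kif20b 0.52 and −0.86 (1.38), Cdk1 0.58 and −0.76 (1.34), and Cdc20 0.60 and −0.51 (1.11), again at day 4 and at day 16. The host wells of the days differed in kind: monocyte or macrophage-like wells were 61 of 119 at day 16 and 32 of 359 at day 4, and B cell-like wells 5 and 75. The part of this difference in the result was not tested.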

How the results depend on the processing

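No paired analysis was possible because the replicate numbers in the labels count wells, not shared animals or days, and no test was made. Of 126 alternative medians of the 39 genes, 113 stayed inside the order-statistic 95% interval of the reported median over the 39, as did 69 of 72 alternative counts within 1.5 times the reported count, and 64 of 77 alternative shares within their binomial interval. Of 1638 alternative log2 ratios of single genes, 943 moved by under 0.05, and none of a gene at least 2-fold apart changed sign. Leaving out the CPM filter or raising it to 20 CPM cannot move a single-gene ratio, so those alternatives are among the 943 by construction. Leaving the filter out cannot move a median or count of the 39 either, since all 39 passed it. The scaling itself moved the median of all genes by over 0.1 in some comparisons, most without TMM for host wells of day 16 against day 4 (−0.23, against −0.02 as reported) and with DESeq2 size factors for tumour against host wells at day 10 (−0.10, against 0.12). The cause of the moves below was not tested. Without TMM the median was 0.21 (−0.06 for all genes) at 4T1 day 4 against culture and −0.02 (0.03) at 4T1.2 against 4T1 day 4. For host wells of day 16 against day 4 it was −1.83 (−0.23). With DESeq2 size factors it was −0.01 (0.04 for all genes) between the lines at day 4 and −0.14 (−0.10) for tumour against host wells at day 10. With them 3 genes were 2-fold higher in tumour than host wells at 4T1.2 day 4, not 5. With 1 CPM added it was −3.18 at day 16 against day 4 and −1.81 against day 10, and 19 genes were lower at day 16 than in the fat pad. Weighting wells equally also left TMM out. The median of the 39 was then 0.06 (−0.05 for all genes) at 4T1 day 4 against culture and −1.99 (−0.12) in the fat pad. It was 0.02 (0.03) between the lines at day 4 and −0.74 (0.21) for tumour against host wells at day 16. With wells so weighted, 7 genes were lower at day 16 than in the fat pad. Between the lines at day 4 it was 0.01 without wells near the class cut and −0.02 without wells of both kinds of RNA, a set chosen after seeing the data. The share past a cut of 13 genes was 94.8% at 4T1 day 4, 100% at 4T1.2 day 4, and 57.1% and 72.1% of host wells at 4T1 and 4T1.2 day 4. Past a cut of 26 it was 73.3% at 4T1 day 4, 46.2% at day 10, and 45.5% and 55.7% of those host wells. With 1 count taken as found it was 100% at 4T1 and 4T1.2 day 4, 76.9% at day 10, and 97.2% and 100% of those host wells. Each group is 1 sample, so spread between animals or cultures is unknown.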

Other observations

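Some genes that restrain the cycle or respond to stress were higher in tumour wells of day 4 bone than in culture, and others were not. Btg2, an antiproliferative gene, had 171 CPM at 4T1 day 4, 274 in the fat pad and 182 at 4T1.2 day 4, against 2.67 in 4T1 culture and 3.09 in 4T1.2 culture. Gadd45g, a stress-induced growth arrest gene, had 314 CPM at 4T1 day 4 and 80.2 at 4T1.2 day 4, against 34.1 and 10.9 in the culture of the same line. Cdkn1a, the CDK inhibitor p21, had 151 and 76.0 CPM there, against 26.0 and 33.2. Its fat pad level of 32.4 CPM was close to that of 4T1 culture. Gadd45a and Gadd45b, relatives of Gadd45g, had 6.47 and 43.2 CPM at 4T1 day 4, against 12.1 and 67.9 in 4T1 culture, but 16.5 and 32.7 CPM at 4T1.2 day 4, against 5.21 and 11.1 in 4T1.2 culture. The list of cell cycle inhibitors and regulators also holds genes that drive the cycle. Of its 18 genes compared at 4T1 day 4 against culture, 7 were at least 2-fold higher, where 6.11% of all genes were, and among them was cyclin D1, Ccnd1 (1130 against 520 CPM). Myc alone was lower (270 against 585 CPM), where 2.59% of all genes were.

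Between day 16 bone and the fat pad, both low in G2/M genes, 3 of 19 genes of this list were at least 2-fold higher at day 16 and none lower, where 6.54% and 5.02% of all genes were. At day 16 Gadd45g had 633 CPM, Cdkn1a 192 and Gadd45b 171, against 75.1, 32.4 and 55.1 in the fat pad, in that order. Btg2 was not among them, with 336 CPM at day 16 and 274 in the fat pad. Cdkn1b, the CDK inhibitor p27, had 33.6 CPM at day 16 and 46.6 in the fat pad, against 17.4 in 4T1 culture.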
